A study of Mus musculus with 2 samples.

Results

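The Rtl1-antisense miRNAs are small RNAs read from the plus strand of mouse chromosome 12, opposite the Rtl1 gene. They were taken from the small RNA libraries of E9.5 embryonic hearts by name and position, as every precursor entry of miR-431, miR-433, miR-127, miR-434, miR-432 or miR-136 lying inside Rtl1. This gave 3 precursor entries (miR-433, miR-127 and miR-434) out of 620 entries of known miRNAs in both libraries together, of which 471 were listed in both. Entries for the other 3 of the 6 names were not analysed here, and they have no value in what follows. The hearts came from wild type C57BL/6 embryos at embryonic day 9.5, without treatment, and 2 replicates were sequenced, so there is 1 group of samples and no condition was compared. The labels do not say whether the replicates were separate litters or pools of hearts, so differences between them may be technical.

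Imprinted genes are expressed from only one of the parental copies. In the Dlk1-Dio3 domain of chromosome 12 the protein-coding genes, Rtl1 among them, are expressed from the paternal copy, while Meg3, Rian, Mirg and a large set of miRNAs are expressed from the maternal copy. Rtl1 is a gene derived from a retrotransposon and is best known for its role in the blood vessels of the placenta. Because the Rtl1-antisense miRNAs are copied from the strand opposite the Rtl1 message, they pair with it along their whole length, and they are known to direct its cleavage. A miRNA hairpin can release a small RNA from each arm. The program miRDeep2, with which the authors counted their reads, names one arm mature and the other star, and in the 3 hairpins described here the mature arm was the more abundant one.

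The sequences of both arms are shown because each hairpin is defined by them and because the antisense pairing can be read from them. They are the consensus sequences of the deposited tables, given 5′ to 3′, and the capitals mark the seed, bases 2 to 8, with which a miRNA chiefly finds its targets. The first of each pair is the mature arm and the second the star arm.
miR-433-3p: aUCAUGAUgggcuccucggug
miR-433-5p: uACGGUGAgccugucauuau
miR-127-3p: uCGGAUCCgucugagcuuggc
miR-127-5p: gAAGCUCAgagggcucugau
miR-434-5p: gCUCGACUcaugguuugaacc
miR-434-3p: uUUGAACCaucacucgacucc

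The 3 mature arms were each 21 nt long and lacked the last base of the 22 nt sequence that RefSeq (GRCm38.p6 tables) gives for them. All 6 arms matched a RefSeq sequence. Of the star arms, miR-433-5p lacked 2 bases at its 3′ end and miR-434-3p lacked 1. The consensus of miR-127-5p began 2 bases later than in RefSeq, so that its bases 2 to 8 are a different seed from the RefSeq one. The seeds of the 3 mature arms differed from each other. Of the 620 entries, 0 others carried one of these 3 seeds in the mature arm, and 0 other sequences among the 1679 mature miRNAs of the RefSeq table carried any of the 6 seeds shown. Each of the 6 arm sequences occurred exactly 1 time in the genome of the build used (mm9, the assembly NCBIM37), searched on both strands. A read equal to one of these sequences could therefore be placed at no other locus without a mismatch.

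The precursors followed each other on the plus strand of chromosome 12 in the order miR-433, miR-127 and miR-434. In mm9 miR-433 occupied chr12:110829939-110830011 within the miRNA gene Mir433, miR-127 occupied chr12:110831066-110831118 within Mir127, and miR-434 occupied chr12:110832738-110832795 within Mir434. The spaces between them were 1054 and 1619 bases. By the GENCODE vM1 annotation all 3 lay opposite the single coding exon of Rtl1 (minus strand, chr12:110827404-110833698) and inside its coding sequence (chr12:110828379-110833613), in neither an intron nor an untranslated part of that gene. Their starts were 50.7, 51.9 and 53.5 kb downstream of the start of Meg3 (plus strand, chr12:110779211-110809936). On the Rtl1 message, counted from the first base of its start codon, the order is turned round, with the mature arm of miR-434 opposite coding bases 856 to 876, that of miR-127 opposite bases 2496 to 2516 and that of miR-433 opposite bases 3603 to 3623.

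The Rtl1 stretches that lie opposite the mature arms are printed to show the full complement, on the minus strand of mm9, with the bases that pair with the seed in capitals.
Opposite miR-433-3p, chr12:110829991-110830011: caccgaggagcccATCATGAt
Opposite miR-127-3p, chr12:110831098-110831118: gccaagctcagacGGATCCGa
Opposite miR-434-5p, chr12:110832738-110832758: ggttcaaaccatgAGTCGAGc

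Each of the 6 arms had exactly 1 full-length antisense match in the Rtl1 transcript of 6357 nt. The 7 letters complementary to bases 2 to 8 were then sought along the same transcript, on its own strand, counting overlapping matches. They occurred 1 time for miR-433-3p (ATCATGA), 1 time for miR-433-5p (TCACCGT) and 1 time for miR-127-3p (GGATCCG), in each case only in the arm's own site. Of 1538 other transcripts, the longest of each gene that reached this length and cut to it, 36.7%, 22.1% and 14.6% held these letters. The letters for miR-127-5p (TGAGCTT) occurred 2 times, its own site included, and 10.2% of the other transcripts held them at least as often.

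miR-434 differed in this respect from its neighbours. The letters for miR-434-5p (AGTCGAG) occurred 3 times in Rtl1, at coding bases 821, 869 and 893, and those for miR-434-3p (GGTTCAA) occurred 4 times, at coding bases 832, 856, 880 and 928. At least 1 match to them was found in 11.5% and 24.8% of the other transcripts, and at least as many matches as in Rtl1 were found in 0% and 0.065% of them. The Rtl1 counts include the arm's own site, which its antisense position fixes in advance, so these percentages are a description and no test. For each arm the matches in Rtl1 lay 24 bases, or a multiple of 24, apart. They are not all separate sites, since the miR-434-5p match at 821 lies within the own site of miR-434-3p. Likewise, the miR-434-3p match at 856 lies within the own site of miR-434-5p. All 7 are shown, own sites first, to let the similarity beyond the seed be read, with the chr12 interval of each on the minus strand.
miR-434-5p, own site, chr12:110832738-110832758: ggttcaaaccatgAGTCGAGc
miR-434-5p, copy upstream in Rtl1, chr12:110832786-110832806: ggttcgaaccaggAGTCGAGt
miR-434-5p, copy downstream in Rtl1, chr12:110832714-110832734: ggttcaaacccagAGTCGAGc
miR-434-3p, own site, chr12:110832775-110832795: ggagtcgagtgatGGTTCAAa
miR-434-3p, nearest copy, chr12:110832751-110832771: cgaattaagtaatGGTTCAAa
miR-434-3p, next copy, chr12:110832727-110832747: tgagtcgagctttGGTTCAAa
miR-434-3p, farthest copy, chr12:110832679-110832699: ggagtcaagcggtGGTTCAAa

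Of the 21 bases of the miR-434-5p site, the upstream copy shared 18 and the downstream copy 19. For miR-434-3p the 3 further copies shared 16, 17 and 18 of 21 bases with its own site. The overlap of these copies with the opposite arm goes with a likeness of the arms of miR-434 themselves. A run of 8 identical bases (cucgacuc), which holds the seed of miR-434-5p, occurred in both. So did another run of 8 bases (uuugaacc), which holds the seed of miR-434-3p. The longest run common to both arms was 5 bases in miR-433 (cggug) and 5 bases in miR-127 (ucuga). In the Rtl1 coding sequence around this hairpin, 67.5% of bases were identical to the base 24 positions earlier, compared with 34.2% over the whole coding sequence. This stretch was chosen after the matches had been seen, so the percentage is a description. The matches are letters in a window and do not show that any of these copies is bound.

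Abundance is given in percent of the mature reads summed over all entries of each library (its share), 4942257 in replicate 1 and 4806179 in replicate 2, with no further normalisation. These sums count a mature sequence again at each entry that lists it, and with every sequence counted once they were 3619523 and 3499739. Confidence intervals are 95% Wilson intervals and cover counting error only. As a check on the tissue, the heart muscle miRNAs miR-1a, miR-133a, miR-208a, miR-208b and miR-499 together held 22.6% and 23.5% of mature reads in replicates 1 and 2, with miR-208a listed in replicate 1 only. miR-1a and miR-133a are each listed at a pair of entries, and with each sequence counted once the heart muscle list held 15.6% and 16.3%. Counting every entry, endothelial miR-126a held 2.90% and 2.87%. Blood miRNAs (miR-451a, miR-144 and miR-486a, with miR-223 not listed) held 0.219% and 0.270%, nearly all of it miR-486a (0.217% and 0.265%), which is listed at a pair of entries. miR-451a held only 0.0026% in each replicate, and miR-144 was listed in replicate 2 only. With each sequence counted once, under the name of its highest entry, the blood list held 0.154% and 0.00571%. The replicate 2 value covers miR-451a and miR-144 only, because the miR-486a sequence was kept there under a name off the list. It therefore does not show less miR-486a in replicate 2. Counting every entry, the neural miR-124 and miR-9 held 0.0193% and 0.0148%, and the liver miRNA miR-122 held 0.0421% and 0.0554%.

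miR-127 was by far the most abundant of the 3 miRNAs. Its mature arm, miR-127-3p, had 233421 reads in replicate 1 and 253401 in replicate 2. These were 4.72% (interval 4.70 to 4.74) and 5.27% (5.25 to 5.29) of mature reads, a mean of 5.0% ± 0.39 (SD, n = 2). It ranked 5th in both replicates and was the highest of the analysed entries of the imprinted domain.

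miR-434-5p came next, with 63877 and 75784 mature reads. Its shares were 1.29% (1.28 to 1.30) and 1.58% (1.57 to 1.59), a mean of 1.43% ± 0.20 (SD, n = 2), and it ranked 17th in both replicates. miR-433-3p was the lowest, with 17929 and 22433 mature reads, or 0.363% (0.358 to 0.368) and 0.467% (0.461 to 0.473). Its mean was 0.415% ± 0.074 (SD, n = 2), at ranks 46 and 40. The ranges of the 3 miRNAs did not overlap, and their order was the same in both replicates.

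The steps between them were of similar size. miR-127-3p had 3.65 and 3.34 times the reads of miR-434-5p in replicates 1 and 2 (mean 3.50 ± 0.22, SD, n = 2), and miR-434-5p had 3.56 and 3.38 times those of miR-433-3p (3.47 ± 0.13, SD, n = 2). Over the whole group, miR-127-3p was 13.0 and 11.3 times as abundant as miR-433-3p. Of the mature reads of the 3 entries, miR-127-3p accordingly supplied 74.0% and 72.1%, miR-434-5p 20.3% and 21.6%, and miR-433-3p 5.69% and 6.38%. The order of abundance was not the order on the chromosome, since the middle hairpin was the highest.

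**Figure D1:**
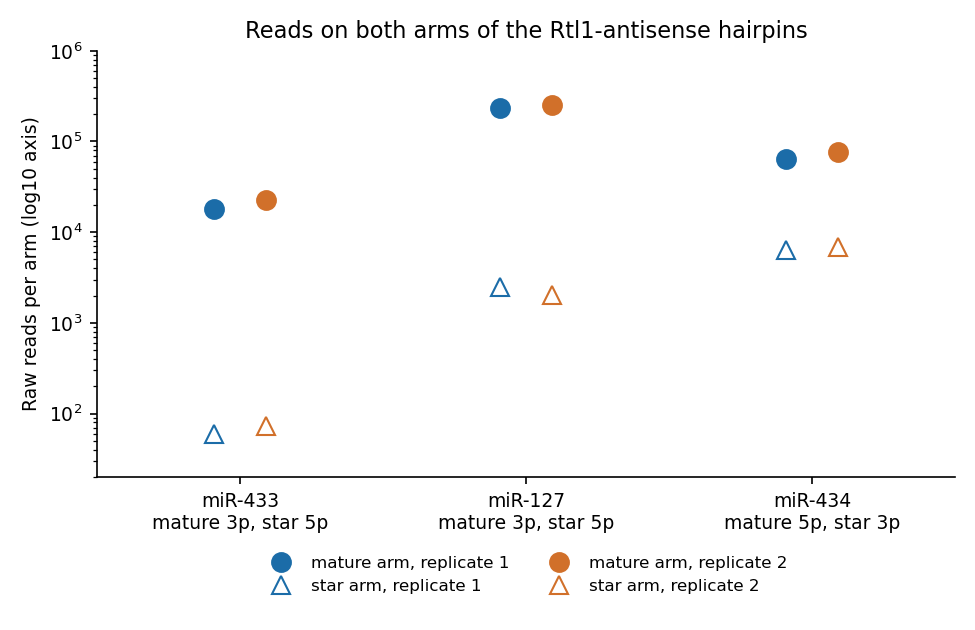
Raw reads on the mature arm (filled circles) and star arm (open triangles) of each Rtl1-antisense hairpin, on a log10 axis, with replicate 1 in blue and replicate 2 in orange. Each point is 1 library. The mature arms fall from miR-127 to miR-434 to miR-433, whereas the highest star arm is that of miR-434, at 6373 and 6945 reads.

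miR-127-3p stood among miRNAs from other chromosomes in rank. Just above it stood miR-143-3p, a miRNA of smooth muscle, at 6.75% ± 0.79, and miR-148a-3p at 5.94% ± 0.89, and just below it miR-21a-5p at 3.56% ± 0.30 (SD, n = 2 for each). miR-21a-5p was listed at a pair of entries with the same values. The distance from miR-127-3p to miR-148a-3p, 0.938 percentage points, exceeded the larger SD, and the order held in both replicates. In replicate 2 alone, however, the shares were close, at 5.30% for miR-148a-3p and 5.27% for miR-127-3p. The mean of miR-433-3p was within its own SD of those of miR-99a-5p (0.419%) and miR-106b-3p (0.411%). The same held for miR-341-3p (0.443%), miR-134-5p (0.374%) and miR-409-3p (0.362%) of the imprinted domain, so its place among these is not resolved.

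The arms of the 3 hairpins were used very unequally, and miR-434 was the hairpin with most reads on its star arm. The star arm miR-434-3p had 6373 and 6945 reads, which is 9.07% (8.86 to 9.29) and 8.39% (8.21 to 8.59) of the reads on both arms, a mean of 8.73% ± 0.48 (SD, n = 2). The star arm miR-127-5p had 2502 and 2036 reads, or 1.06% (1.02 to 1.10) and 0.797% (0.763 to 0.832). The star arm miR-433-5p had only 60 and 73 reads, or 0.334% (0.259 to 0.429) and 0.324% (0.258 to 0.408).

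The star percentages of the hairpins did not overlap between them. Expressed the other way, there were 10.0 and 10.9 mature reads for each star read in miR-434, 93.3 and 124 in miR-127, and 299 and 307 in miR-433. The arm that dominated was the 3′ arm in miR-127 and miR-433 and the 5′ arm in miR-434, in both replicates. Reads on the loop numbered 0 for all 3 hairpins in both replicates.

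Although miR-127-3p exceeded miR-434-5p, the order of their star arms was reversed. miR-434-3p had 2.55 and 3.41 times the reads of miR-127-5p. Among the star arms of the entries listed in both replicates, miR-434-3p ranked 5th and 4th, miR-127-5p 15th and 18th, and miR-433-5p 115th and 108th. The reads of miR-434-3p, although called star, exceeded the mature reads of 391 and 396 of the 471 entries listed in both replicates. Among 305 entries that reached 100 reads in each replicate the median star percentage was 1.07%, and 75.7% of them had a lower one than miR-434, 48.5% a lower one than miR-127 and 41.3% a lower one than miR-433. Repeated listings of a mature sequence are among these entries, and their star percentages can differ. In replicate 1, for example, those of miR-411-5p were 9.01% and 0.051%. How far such repeats move the percentages was not tested.

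The hairpins also differed in shape. As listed by miRDeep2, from the first base of one arm to the last of the other, the precursor of miR-433 was 73 nt long with 32 nt between the arms, that of miR-127 was 53 nt with 12 nt, and that of miR-434 was 58 nt with 16 nt. The median over the same 305 entries was 60 nt, and only 2.95% of them were shorter than miR-127, while 91.5% were shorter than miR-433. Folding with RNAfold gave minimum free energies of -27.4 kcal/mol for miR-433, -25.5 for miR-127 and -19.4 for miR-434. Per nucleotide these were -0.38, -0.48 and -0.33 kcal/mol, against a median of -0.39. Hence miR-127, the most abundant of the 3, had the most stable hairpin per nucleotide, and miR-434, with the highest star percentage, the least stable. With 3 hairpins no relation between these measures can be tested.

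Together the 3 entries held 315227 and 351618 mature reads, 6.38% (6.36 to 6.40) and 7.32% (7.29 to 7.34) of each library, a mean of 6.85% ± 0.66 (SD, n = 2). They were compared with the other plus-strand miRNAs of the same domain, divided into those on the Meg3 and Rian side (10 entries) and the cluster from miR-379 to miR-410 (36 entries). The Meg3 and Rian side held 1.95% and 2.05% (2.0% ± 0.064, SD, n = 2), of which miR-370-3p gave 1.23% and miR-341-3p 0.443% on average. The Rtl1-antisense miRNAs were thus 3.26 and 3.58 times as abundant as all of those entries in sum. Both sums come from the same 2 libraries, and an exact permutation test on 2 pairs cannot give a p below 0.5, so none is reported.

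The comparison with the miR-379 to miR-410 cluster depended on how repeated entries were counted. Its 36 entries carry only 32 mature sequences, because some, such as miR-381-3p, are listed at a pair of entries with equal reads. Counting every entry, the cluster held 8.90% and 8.39% (8.64% ± 0.36, SD, n = 2), led by miR-381-3p at 1.68% for each of its entries and miR-541-5p at 1.09%, and the Rtl1-antisense miRNAs had 0.716 and 0.872 times its reads. With each mature sequence counted once, the cluster held 8.29% and 7.87% of a smaller total, the Rtl1-antisense miRNAs held 8.71% and 10.0%, and the ratio turned to 1.05 and 1.28. Both ways of counting include miR-300-3p, which had 19069 mature reads in replicate 1 and was not listed in replicate 2. Its reads lower the ratios of replicate 1 only. Over the entries listed in both replicates, repeats included, the cluster held 8.52% and 8.39%.

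The analysed entries of the domain, counting every entry, held 17.2% and 17.7% of mature reads. The 3 Rtl1-antisense entries gave 37.0% and 41.2% of that, and 33.4% and 32.3% of the star reads of these entries. The domain sums of replicate 1 include miR-300-3p, which was not listed in replicate 2. miR-434-5p stood 4th among the 46 domain entries listed in both replicates, below both miR-381-3p entries. By its mean miR-433-3p stood 12th, a place not resolved from those of miR-341-3p, miR-134-5p and miR-409-3p.

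**Figure D2:**
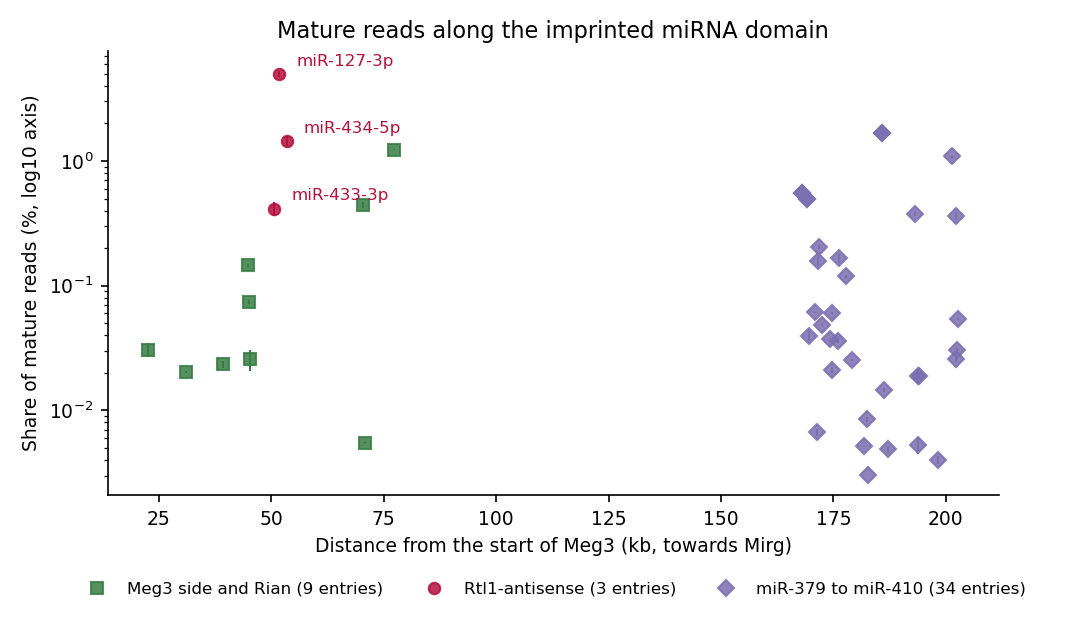
Share of mature reads (log10 axis, percent) of the 46 domain entries listed in both replicates against their distance in kb from the start of Meg3, with Rtl1-antisense entries as red circles, Meg3 side and Rian as green squares and the miR-379 to miR-410 cluster as violet diamonds. Points are means of 2 replicates and the vertical lines, often shorter than the symbol, join the replicates. miR-127-3p, at 5.0%, is the highest point.

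**Figure D3:**
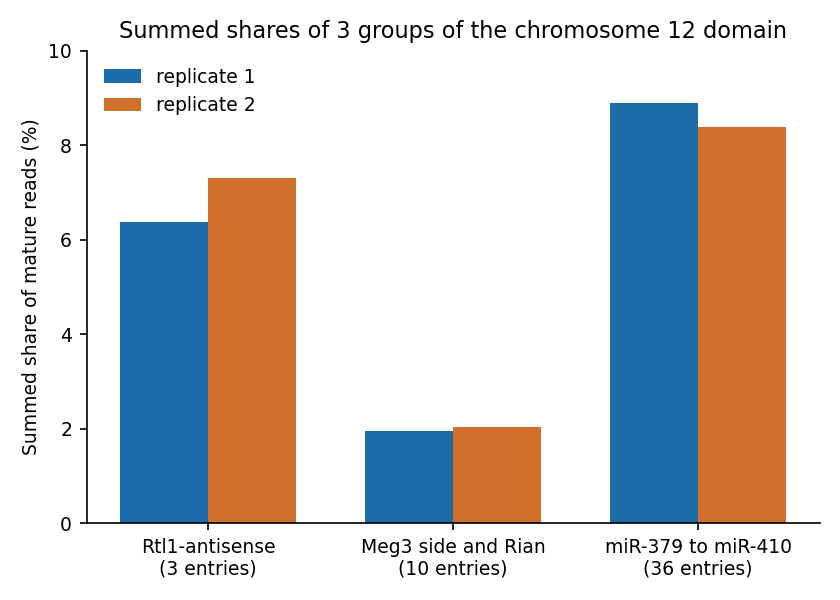
Summed share of mature reads in percent for the 3 groups of the domain in replicate 1 (blue) and replicate 2 (orange), counting every listed entry, with 1 bar for each library and no error bar. The Rtl1-antisense bars, at 6.38% and 7.32%, come from 3 entries, and those of the miR-379 to miR-410 cluster, at 8.90% and 8.39%, from 36. The replicate 1 bar of that cluster includes miR-300-3p, which was not listed in replicate 2.

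The replicates were then compared with each other. All 3 Rtl1-antisense miRNAs had a higher share in replicate 2 than in replicate 1. The log2 ratio of shares was 0.36 for miR-433-3p (adjusted p = 3.5e-139, exact binomial test with Benjamini-Hochberg adjustment over 431 entries) and 0.29 for miR-434-5p (adjusted p = 2.5e-299, same exact test). For miR-127-3p it was 0.16, with an adjusted p too small to be computed. All 3 were therefore called at an adjusted p of 0.05, but 41.1% of all 431 entries tested were called in either direction and 27.6% were called as higher in replicate 2. The 3 belong to the 62 entries whose mature reads reached 10000 in each replicate, and of these 53 were called (85.5%), 28 of them as higher in replicate 2.

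The size of these differences was then set beside the spread over all entries. The test covers read-counting error, while the spread of all entries between the libraries was larger, with a biological coefficient of variation of 14.7% by edgeR's common dispersion. That spread corresponds to an SD of 0.30 for a log2 ratio, which the ratio of miR-433-3p exceeded and those of miR-434-5p and miR-127-3p did not. The dispersion was estimated with TMM-scaled library sizes. On that scale the ratio of miR-433-3p, 0.305, was practically equal to that SD. With the size factors of DESeq2 the ratio of miR-433-3p was just below it. Over all tested entries the median absolute log2 ratio was 0.19, and 78.0% of entries had a smaller one than miR-433-3p, 68.2% a smaller one than miR-434-5p and 45.0% a smaller one than miR-127-3p.

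The balance of calls over all entries moved with the scaling. Of the 177 calls, 119 were higher in replicate 2, against 86 of 178 with TMM scaling and 78 of 176 with the size factors of DESeq2. A scaling moves every log2 ratio by the same amount, and under these the ratios were 0.31 and 0.30 for miR-433-3p, 0.23 and 0.22 for miR-434-5p, and 0.10 and 0.091 for miR-127-3p.

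**Figure D4:**
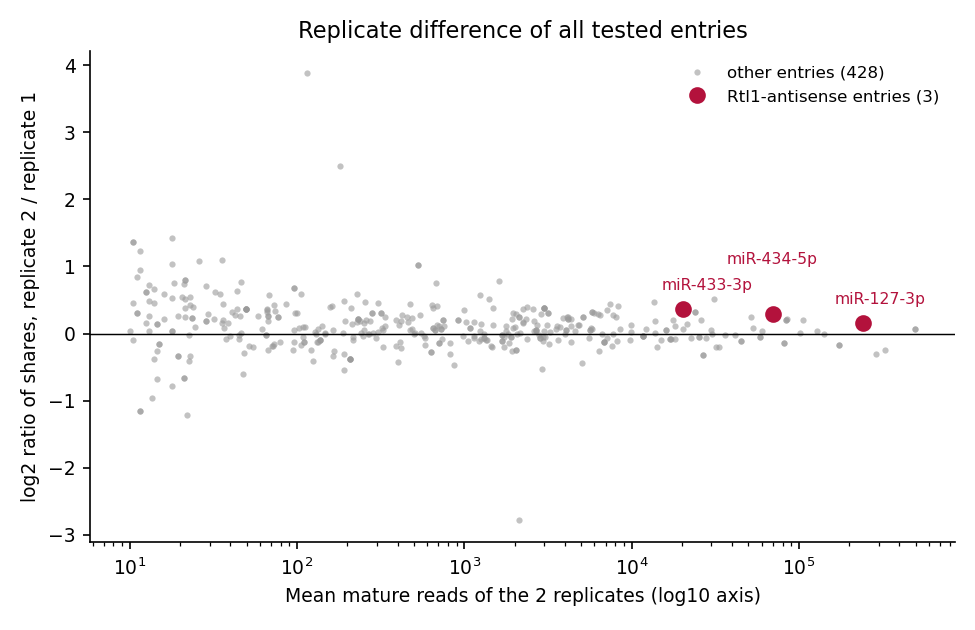
The log2 ratio of shares (replicate 2 over replicate 1) against the mean mature reads of both replicates (log10 axis) for the 431 tested entries, with the 3 Rtl1-antisense entries in red and the others in grey. The red points lie above 0, at 0.36, 0.29 and 0.16 from left to right.

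The star arms did not all follow their mature arms. Divided by the same library totals, the star reads gave a log2 ratio between replicate 2 and replicate 1 of 0.32 for miR-433-5p and 0.16 for miR-434-3p, but of -0.26 for miR-127-5p. For the 3 hairpins in sum the star percentage was 2.76% in replicate 1 and 2.51% in replicate 2, whereas that of the whole library was 2.45% and 2.68%. The whole-library value counts a mature sequence again at each entry that lists it, while the members have no repeated entries. How far these repeats move the contrast was not tested. The intervals of the star percentage did not overlap between the replicates for miR-127 and miR-434, and they overlapped for miR-433.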

How the data were processed

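Total RNA of wild type E9.5 hearts was made into TruSeq small RNA libraries and sequenced in 2 replicates (HiSeq2500, single-end, 50 nt). Per the labels, the authors used miRDeep2 to map each replicate to the mouse genome mm9. The deposited tables hold raw read counts per precursor (total, mature, loop and star) and a deposited miRDeep2 score, a log-odds value for each precursor, which was not used in any comparison. Versions of miRDeep2 and miRBase were not given in the sources used here.

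Entries of the replicates were paired at 50% reciprocal overlap on the same strand, and named by the arm that held the mature reads. All 620 precursor sequences equalled the genome NCBIM37. Depth was 4942257 and 4806179 mature reads summed over entries, in which repeated sequences count at each entry. A count of 0 would allow a share of up to 6.07e-05% and 6.24e-05% (3 reads). Shares are means ± SD over 2 replicates. The replicates were compared by a two-sided exact binomial test on the 431 entries found in both and reaching 20 mature reads in sum, Benjamini-Hochberg adjusted. On simulated counts with counting error only, it called 1.3% of unchanged entries and 63% of those changed by a factor of 1.25 or 0.8. The simulation held no further spread between replicates, so it does not show how the test behaves with the larger spread of these libraries. The test compares 2 libraries and not conditions.

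Software was Python 3.11.15, numpy 2.4.6, pandas 2.3.3, scipy 1.17.1, matplotlib 3.10.9, RNAfold 2.7.2, R 4.3.3, edgeR 4.0.16 and DESeq2 1.42.0. The members and lists were chosen with earlier results of these data known. Named besides the members are the entries next to them in rank, entries that share bases or a seed with them (0 were found), the 2 highest of each neighbouring group, and cell type marker miRNAs. The rule gave rank neighbours of the highest member only, so those of miR-433, and miR-409-3p, were named after their values were seen. As alternatives, repeated mature sequences were counted once, whole-precursor reads replaced mature reads, entries under 10 mature reads in either replicate were left out, and further fits dropped the minimum of reads, changed the scaling and left out each replicate. Adding star to mature reads was chosen after seeing the data.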

Additional observations from a re-analysis of the deposited data

How the results depend on the processing

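Counting each mature sequence once, by its highest entry, changed the summed share of the Rtl1-antisense entries from 6.85% to 9.38% ± 0.95 (SD, n = 2), since the total of mature reads is smaller. In the same way miR-433 moved to 0.568%, miR-127 to 6.84% and miR-434 to 1.97%, their ranks to 32, 4 and 12, and the neighbouring groups to 2.74% (Meg3 side and Rian) and 8.08% (miR-379 to miR-410). The summed share was 6.85% with all reads of the precursor, 6.87% without entries under 10 mature reads in either replicate and 6.85% with mature and star reads added, and ranged from 6.38% to 7.32% when either replicate was left out. The star percentages could not change with loop reads in the total, because none of the 3 hairpins had loop reads. In the comparison of the replicates all 3 members kept their call and direction under every alternative run, and the number of entries called stayed within 1.5 times the main 177. Leaving out a replicate could not be applied to that comparison, which needs both. With 2 libraries of unstated origin, the spread between litters or dissections cannot be told apart from that between library preparations. No paired analysis was possible because there is only 1 group of samples.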
